A study of Mus musculus with 10 samples.

Results

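The collagen prolyl and lysyl hydroxylases are enzymes of the endoplasmic reticulum that add hydroxyl groups to proline and lysine in newly made collagen. The genes described here were the prolyl 3-hydroxylase family (P3h1, P3h2, P3h3 and P3h4), the catalytic subunits P4ha1 and P4ha2 of prolyl 4-hydroxylase, the lysyl hydroxylases Plod1, Plod2 and Plod3, and Serpinh1, which encodes the collagen chaperone HSP47. They were taken by gene symbol, and all 10 were found among the 46957 loci listed. The group was chosen because P3h2 had the largest fitted rise in these data, and the question was whether the other hydroxylases followed it. The contrast between treatments in P3h2 is therefore a description, with no test.

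The RNA came from tumour-associated macrophages of BALB/cJ mice carrying 4T1 tumours. 4T1 is a mouse mammary carcinoma line, and it was placed in the mammary fat pad in both groups. One group received the vehicle, PBS (5 samples), and the other received JHU083, a prodrug of the glutamine antagonist 6-diazo-5-oxo-L-norleucine, at 1 mg/kg on days 7 to 13 (5 samples). Tumours were taken on day 14 in both groups, and live cells were sorted as CD45+, CD11b+ and F4/80+ while lacking CD8, Ly6C and Ly6G. The age of the mice is not given in the sources used here. No label says that each sample came from a separate mouse, so the p-values measure the spread between these samples.

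Collagen hydroxylases need iron, oxygen, ascorbate and 2-oxoglutarate, a metabolite that cells can derive from glutamine. Prolyl 4-hydroxylation lets the collagen triple helix hold together at body temperature. Prolyl 3-hydroxylation is rarer, and lysyl hydroxylation prepares sites for sugar attachment and for the cross-links between fibrils. Fibroblasts and other matrix-producing cells are the main users of the pathway. Macrophages are better known for taking up and degrading collagen, and they also secrete C1q, whose collagen-like stalk is hydroxylated by the same enzymes.

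The deposited values gave 11147723 to 14575720 fragments per vehicle library and 13638169 to 15740488 per JHU083 library. Levels are given as CPM (fragment counts scaled to library size, here with TMM factors), and the order of the members by level was taken from the deposited FPKM, which also divide by gene length. Adjusted p-values are from edgeR's quasi-likelihood test with Benjamini-Hochberg adjustment over 12500 loci, and a gene was called at an adjusted p under 0.05. In 5 libraries (vehicle 2, 4 and 5, JHU083 1 and 3) the ribosomal loci Rn18s-rs5 and Gm42418 had values of 0, and together they held 2.87% to 5.59% of fragments in the others. This division cuts across the treatments, and fits within each subset are given beside P3h2 and the members that were called. The 4 members that were not called did not pass in either subset. The summed level of 10 macrophage markers was 16447 to 19903 CPM in vehicle and 21218 to 27752 CPM in JHU083 libraries. Of these 10, 4 were called higher (Adgre1, Csf1r, Mertk and Lyz2) and 6 did not pass. Lyz2 had the highest level, averaging 6980 CPM in vehicle and 10458 CPM in JHU083. Of the genes of the sorting markers, Adgre1, which encodes F4/80, averaged 595 CPM in vehicle and 922 CPM in JHU083. Itgam, which encodes CD11b and whose row also carries RP23-144N15.3, averaged 687 and 702 CPM (edgeR adjusted p = 0.779). Epithelial markers were also present and lower after JHU083, as given beside Serpinh1 and Plod2. In sorted bulk samples, fewer cells of a type and less RNA per cell cannot be told apart.

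The other hydroxylases did not move as one group. Of the 9 genes besides P3h2, 2 rose after JHU083 (P3h3 and Plod1), 3 fell (Plod2, Plod3 and Serpinh1), and 4 did not pass the test (P3h1, P3h4, P4ha1 and P4ha2). Over all loci tested, 36.8% were called, 18.4% in each direction, so calls were frequent throughout these data. The 2301 higher and 2295 lower calls became 1560 and 3138 with scaling by library size only, under which P3h1 joined the members that fell. The median log2 fold change was -0.20 over the 9 genes and 0.01 over all loci tested. DESeq2 and limma-voom each also gave 2 higher and 3 lower.

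**Figure D1:**
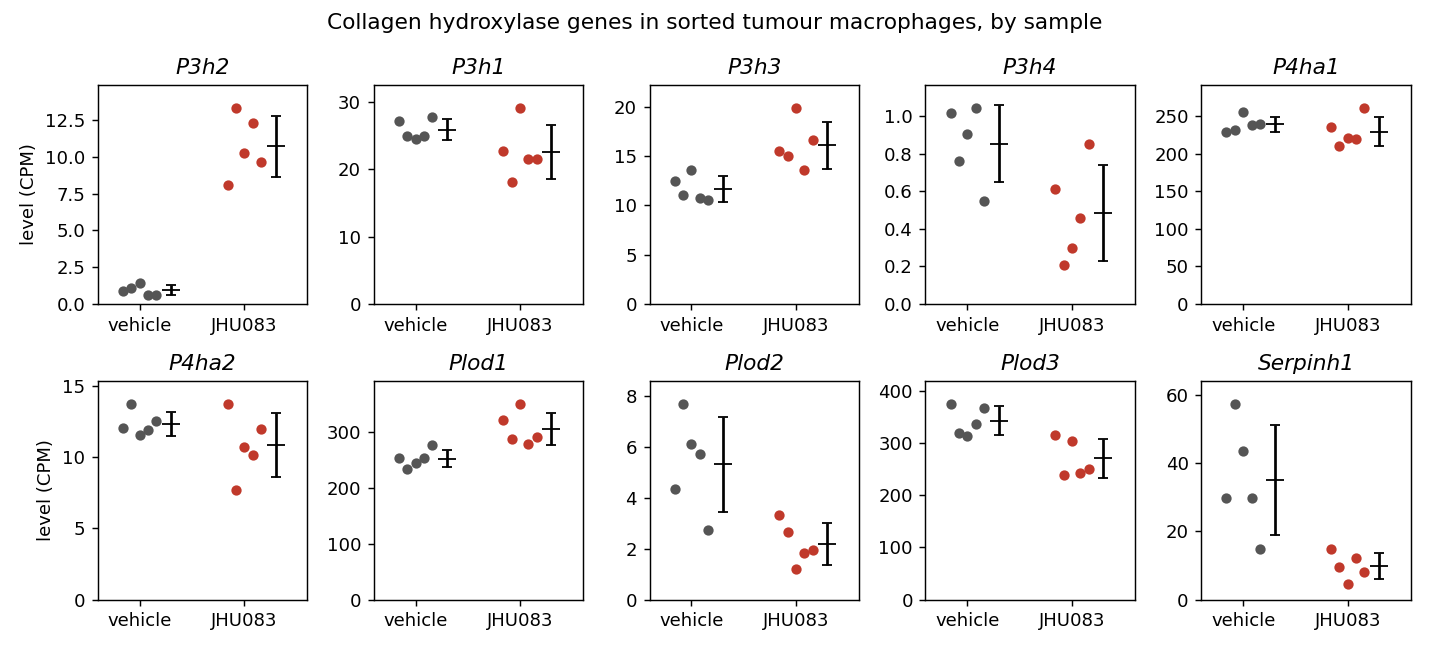
Level of each gene in CPM (vertical axes, from 0) in the 5 vehicle (grey) and 5 JHU083 (red) libraries, one point per library in label order, with the mean and SD as the bar beside them. P3h2 lies between 8.11 and 13.3 CPM in JHU083 libraries and between 0.61 and 1.43 CPM in vehicle libraries, whereas P4ha1 spans overlapping ranges.

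P3h2, which encodes a prolyl 3-hydroxylase known to act on basement membrane collagen IV, was low in vehicle libraries. Its CPM values there were 0.88, 1.07, 1.43, 0.61 and 0.63, from 7 to 19 fragments per library. In JHU083 libraries its CPM values were 8.11, 13.3, 10.3, 12.3 and 9.63, from 119 to 194 fragments. Every JHU083 library lay above every vehicle library, and the lowest JHU083 value was 5.66 times the highest vehicle value. The mean level was 0.92 ± 0.34 CPM in vehicle and 10.7 ± 2.08 CPM after JHU083 (SD, n = 5 each), a ratio of 11.6. The fitted log2 fold change was 3.51 ± 0.23 (SE), ranking 1 among 12500 loci tested. The next 2 among loci of at least 2 in average log2 CPM whose groups were called and did not overlap were Rnase2a (3.02) and Cd209e (2.96). Among less abundant loci, Rasgrp3 stood at 3.47, within 1 SE of P3h2. The P3h2 log2 fold change was 3.56 within the libraries that listed the ribosomal loci at 0 and 3.33 within the others. Leaving out each library in turn gave 3.40 to 3.72.

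Size on the FPKM scale was smaller for P3h2, whose mean FPKM was 0.645 ± 0.445 in vehicle and 3.22 ± 0.63 in JHU083 (SD, n = 5 each). The log2 fold change fitted to FPKM was 2.35 with a pseudocount of 0.1 and 1.39 with a pseudocount of 1. The deposited count per FPKM unit, which is proportional to the transcript length assigned to the gene, also differed between libraries. It was between 45.1 and 45.3 in all 5 JHU083 libraries and was 28.1, 11.3, 21.1, 19.7 and 45.2 in the vehicle libraries. In 4 vehicle libraries the few fragments of P3h2 were thus divided by a shorter length, which raises their FPKM. The P3h2 locus lies at chr16:25959288-26105784 on the minus strand of GRCm38, by the GENCODE annotation. The antisense gene Gm4524 overlaps one of its ends and had at most 5 fragments in any library, and AU015336, within an intron, had 0.

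The 5 loci whose profiles over the 10 libraries were most like that of P3h2 were Chp2, Rasgrp3, Sardh, Sult1a1 and Camk2n1. Likeness was the root mean squared difference of mean-centred log2 CPM, and it ran from 0.41 for Chp2 to 0.57 for Camk2n1. Chp2, a calcineurin B-like protein gene, averaged 2.13 ± 0.67 CPM in vehicle and 16.01 ± 4.67 CPM after JHU083 (SD, n = 5 each). Camk2n1, which encodes an inhibitor of the kinase CaMKII, averaged 5.90 ± 0.93 and 39.6 ± 5.85 CPM. The measure is governed by the treatment difference through which P3h2 was chosen, so it is a description only.

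P3h3 encodes a prolyl 3-hydroxylase family protein that works in a complex with P3h4 and the lysyl hydroxylase Plod1, and it lies at chr6:124841089-124857752 on the minus strand. P3h3 was at 12.4, 11.05, 13.6, 10.8 and 10.5 CPM in vehicle and at 15.5, 15.0, 19.8, 13.5 and 16.6 CPM in JHU083 libraries. The lowest JHU083 value, in library 4, lay just under the highest vehicle value, in library 3, and the other JHU083 values lay above all vehicle values. P3h3 rose from 11.7 ± 1.30 to 16.1 ± 2.36 CPM (SD, n = 5 each), a log2 fold change of 0.46 ± 0.12 (SE) with an edgeR adjusted p of 0.00818. Within the libraries listing the ribosomal loci at 0 the P3h3 change was 0.71 (edgeR adjusted p = 0.0345), and within the others it was 0.20 (edgeR adjusted p = 0.400).

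P3h1, the prolyl 3-hydroxylase of fibrillar collagens, was the most abundant member of this family in FPKM. Its CPM values were 27.2, 25.0, 24.5, 25.0 and 27.9 in vehicle and 22.7, 18.1, 29.1, 21.5 and 21.6 in JHU083. The JHU083 values lay below the vehicle values except in library 3, which had the highest value of all. The P3h1 change of -0.20 ± 0.11 (log2, SE) did not pass (edgeR adjusted p = 0.176). It passed without JHU083 library 3 (-0.30, edgeR adjusted p = 0.0124) and with scaling by library size only (-0.28, edgeR adjusted p = 0.0458). P3h4, a family member without an enzyme domain of its own, had 3 to 15 fragments per library. P3h4 averaged 0.855 ± 0.205 CPM in vehicle and 0.486 ± 0.257 CPM after JHU083 (SD, n = 5 each), and its change of -0.79 ± 0.38 did not pass (edgeR adjusted p = 0.117).

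P3h2 also took a larger share of the prolyl 3-hydroxylase transcripts in JHU083 libraries. Of the summed FPKM of P3h1, P3h2 and P3h3, P3h2 made up 4.71% ± 3.15 in vehicle and 19.1% ± 4.52 in JHU083 (SD, n = 5 each). The vehicle shares ran from 1.37% to 9.15% and the JHU083 shares from 14.9% to 24.9%, with no overlap. The P3h1 share was 64.3% in vehicle and 45.6% in JHU083, and P3h1 remained the largest of these 3 on average in both groups. With the length assigned in the JHU083 libraries used throughout, the vehicle share of P3h2 was 2.09% ± 0.79. These shares include P3h2 and carry no test.

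P4ha1 and P4ha2 encode the catalytic subunits of prolyl 4-hydroxylase, which pair with the P4hb subunit, and both are known targets of the hypoxia response. P4ha1 was at 229, 232, 255, 238 and 239.8 CPM in vehicle and at 236, 210.03, 220.5, 219 and 260.2 CPM in JHU083. The ranges overlapped, and the highest and lowest values were both in JHU083 libraries. The P4ha1 log2 fold change was -0.06 ± 0.07 (SE, edgeR adjusted p = 0.543). P4ha2 was at 12.3 ± 0.84 CPM in vehicle and 10.9 ± 2.24 CPM after JHU083 (SD, n = 5 each), with a change of -0.18 ± 0.14 (edgeR adjusted p = 0.311). JHU083 library 2 had the lowest P4ha2 value, 7.68 CPM, and JHU083 library 1 had 13.7 CPM, level with the highest vehicle library.

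The lysyl hydroxylases Plod1 and Plod3 moved in opposite directions. Plod1 (chr4:147909753-147936767, minus strand), which hydroxylates lysines of the collagen helix, was at 253, 234, 244, 252 and 276 CPM in vehicle and at 320.4, 287, 349.5, 279 and 290.1 CPM in JHU083. All 5 JHU083 values lay above all 5 vehicle values. Over all loci tested, 22.3% had groups that did not overlap in CPM, 11.2% with JHU083 above. Plod1 rose from 252 ± 15.6 to 305 ± 29.4 CPM (SD, n = 5 each), a log2 fold change of 0.28 ± 0.08 (SE, edgeR adjusted p = 0.0132). The Plod1 change did not pass within the libraries listing the ribosomal loci at 0 (0.40, edgeR adjusted p = 0.0650) or within the others (0.19, edgeR adjusted p = 0.238).

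Plod3 (chr5:136987019-136996648, plus strand), whose product both hydroxylates lysine and adds sugars to it, was at 374, 319, 313, 337 and 367 CPM in vehicle and at 316, 239, 305, 242 and 250 CPM in JHU083. JHU083 library 1 lay just above the lowest vehicle value, in library 3, and the other 4 JHU083 values lay below all vehicle values. Plod3 fell from 342 ± 27.7 to 270 ± 36.9 CPM (SD, n = 5 each), a log2 fold change of -0.34 ± 0.09 (SE, edgeR adjusted p = 0.0115). JHU083 libraries 1 and 3 were also the JHU083 libraries that listed the ribosomal loci at 0. Within that subset the Plod3 change was -0.13 (edgeR adjusted p = 0.515), and within the others it was -0.51 (edgeR adjusted p = 0.0108). The Plod3 row also carries Mir702. Znhit1 overlaps one end of Plod3 on the other strand and also fell (log2 fold change -0.40, edgeR adjusted p = 0.00845). Strand-specific counting is not stated, so reads from the overlap could have been counted for either gene.

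The balance between the 2 abundant lysyl hydroxylases was then compared within each library. A ratio of CPM is not adjusted for gene length, so only its difference between libraries is compared, not whether it lies above or below 1. The ratio of Plod1 to Plod3 in CPM was 0.676, 0.733, 0.780, 0.748 and 0.752 in vehicle libraries and 1.01, 1.198, 1.15, 1.15 and 1.16 in JHU083 libraries. Every JHU083 ratio lay above every vehicle ratio, and the means were 0.738 ± 0.039 and 1.13 ± 0.070 (SD, n = 5 each). The difference was 0.62 on the log2 scale (exact two-tailed permutation test, p = 0.0079, the smallest that 5 against 5 allow, and 0.0238 after Benjamini-Hochberg adjustment over 6 ratios). The ratio of P3h3 to P3h1 also separated the groups, at 0.452 ± 0.065 in vehicle and 0.719 ± 0.080 in JHU083 (exact two-tailed permutation test, p = 0.0079, adjusted 0.0238). The ratio of P4ha2 to P4ha1 overlapped between groups, at 0.0518 and 0.0472 (exact permutation p = 0.294, adjusted 0.352). The 6 ratios were chosen after the levels were seen, so these p-values are not independent of the tests of the single genes.

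**Figure D2:**
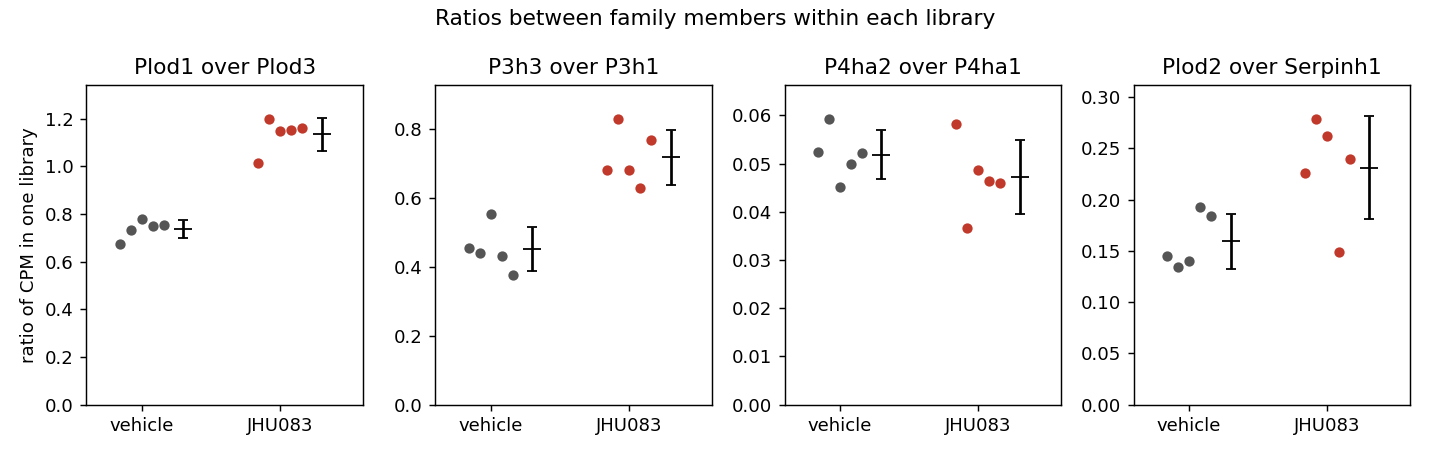
Ratios of CPM within each library (vertical axes, from 0) for 4 pairs of genes in vehicle (grey) and JHU083 (red), with the mean and SD as the bar beside the 5 points. The ratio of Plod1 to Plod3 is 0.676 to 0.780 in vehicle and 1.01 to 1.198 in JHU083, while the ratios of P4ha2 to P4ha1 overlap.

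Plod2 and Serpinh1 were the members that fell most. Plod2 hydroxylates the lysines of collagen telopeptides, which form the stable cross-links of stiff matrix, and HSP47 holds procollagen in its folded form until it leaves the endoplasmic reticulum. Plod2 lies at chr9:92542223-92608428 on the plus strand and Serpinh1 at chr7:99345376-99353239 on the minus strand. Plod2 was at 4.35, 7.69, 6.11, 5.74 and 2.74 CPM in vehicle and at 3.34, 2.67, 1.19, 1.83 and 1.96 CPM in JHU083, from 16 to 101 fragments per library. The groups overlapped only where vehicle library 5 lay below JHU083 library 1. Plod2 fell from 5.33 ± 1.87 to 2.20 ± 0.83 CPM (SD, n = 5 each), a log2 fold change of -1.26 ± 0.29 (SE, edgeR adjusted p = 0.00404).

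Serpinh1 was at 29.9, 57.3, 43.5, 29.7 and 14.9 CPM in vehicle and at 14.8, 9.60, 4.55, 12.3 and 8.19 CPM in JHU083. The lowest vehicle value and the highest JHU083 value were nearly equal, and the vehicle libraries spread widely. Serpinh1 fell from 35.0 ± 16.03 to 9.89 ± 3.92 CPM (SD, n = 5 each), a log2 fold change of -1.82 ± 0.35 (SE, edgeR adjusted p = 0.00159). Within the libraries listing the ribosomal loci at 0, the changes of Serpinh1 (-1.80, edgeR adjusted p = 0.179) and Plod2 (-1.24, edgeR adjusted p = 0.182) were of similar size and did not pass. Within the others they passed, at -1.88 for Serpinh1 (edgeR adjusted p = 0.000219) and -1.28 for Plod2 (edgeR adjusted p = 0.0125).

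**Figure D3:**
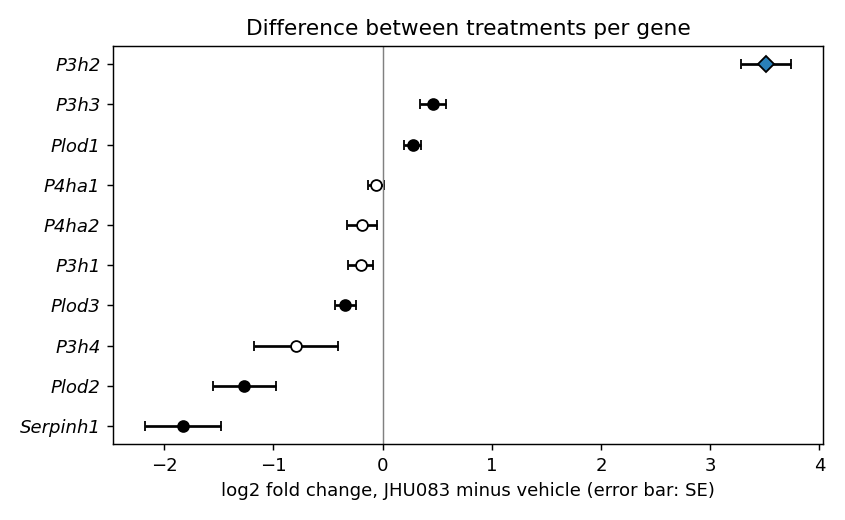
Log2 fold change (JHU083 minus vehicle, horizontal axis) of each gene with its SE as the error bar; filled points were called by edgeR, open points were not, and the blue diamond is P3h2, which was chosen by this value and not tested. P3h2 stands at 3.51, the next highest, P3h3, at 0.46, and Serpinh1 at -1.82.

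Markers of epithelial cells, the lineage of the 4T1 tumour, moved with Plod2 and Serpinh1. The summed level of the 13 epithelial markers was 426, 673, 588, 472 and 308 CPM in vehicle and 149, 186, 106, 225 and 137 CPM in JHU083 libraries, and all 11 that could be tested fell. Epcam, for example, fell from 31.8 ± 11.7 to 9.27 ± 3.39 CPM and Krt8 from 144 ± 49.7 to 36.2 ± 11.2 CPM (SD, n = 5 each; edgeR adjusted p = 0.000448 and 0.000111). None of the 13 was at 0 in all libraries of either group. Among vehicle libraries, the order of Plod2 levels was the order of the epithelial sum and equally that of the sum of 14 fibroblast markers. Those fibroblast sums were 178, 272, 208, 189 and 135 CPM. Serpinh1 was also highest in libraries 2 and 3 and lowest in library 5. Among JHU083 libraries the orders of Plod2 and the epithelial sum differed. Library 4 had the highest epithelial sum and the second-lowest Plod2 level, while library 3 was lowest in that sum and in both genes. The fibroblast sums in JHU083 libraries were 183, 192, 88.7, 136 and 146 CPM, in the order of Plod2 except between libraries 1 and 2. These orders cannot tell the epithelial and fibroblast markers apart.

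Serpinh1 per 100 CPM of epithelial markers was 6.81 ± 1.37 in vehicle and 6.17 ± 2.18 in JHU083 (SD, n = 5 each), a difference of -0.18 on the log2 scale (exact two-tailed permutation p = 0.476, adjusted 0.476). Plod2 per 100 CPM of epithelial markers was 1.06 ± 0.12 in vehicle and 1.41 ± 0.53 in JHU083, a difference of 0.34 (exact two-tailed permutation p = 0.230, adjusted 0.345). Neither ratio differed by more than the spread between libraries, which does not show that they were equal. The ratio of Plod2 to Serpinh1 was 0.1595 in vehicle and 0.231 in JHU083 (exact two-tailed permutation p = 0.0317, adjusted 0.0635). It passed without JHU083 library 4, at 0.67 on the log2 scale against 0.52 with all libraries (exact permutation test, adjusted p = 0.0317). The 14 fibroblast markers summed to 135 to 272 CPM in vehicle and 88.7 to 192 CPM in JHU083, and of the 13 tested 2 rose and 5 fell. The 10 endothelial markers summed to 143 to 228 CPM in vehicle and 49.4 to 104 CPM in JHU083, and of the 7 tested 1 rose (Tie1) and 2 fell (Pecam1 and Egfl7, whose row also carries Fam69b, Gm20532 and Mir126a). Pecam1, which leukocytes also express, made up most of this sum, averaging 151 CPM in vehicle and 52.5 CPM in JHU083. No ratio of Serpinh1 or Plod2 to the fibroblast or endothelial markers was made. The part of epithelial, fibroblast or endothelial cells in the changes of Serpinh1 and Plod2 was not tested.

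**Figure D4:**
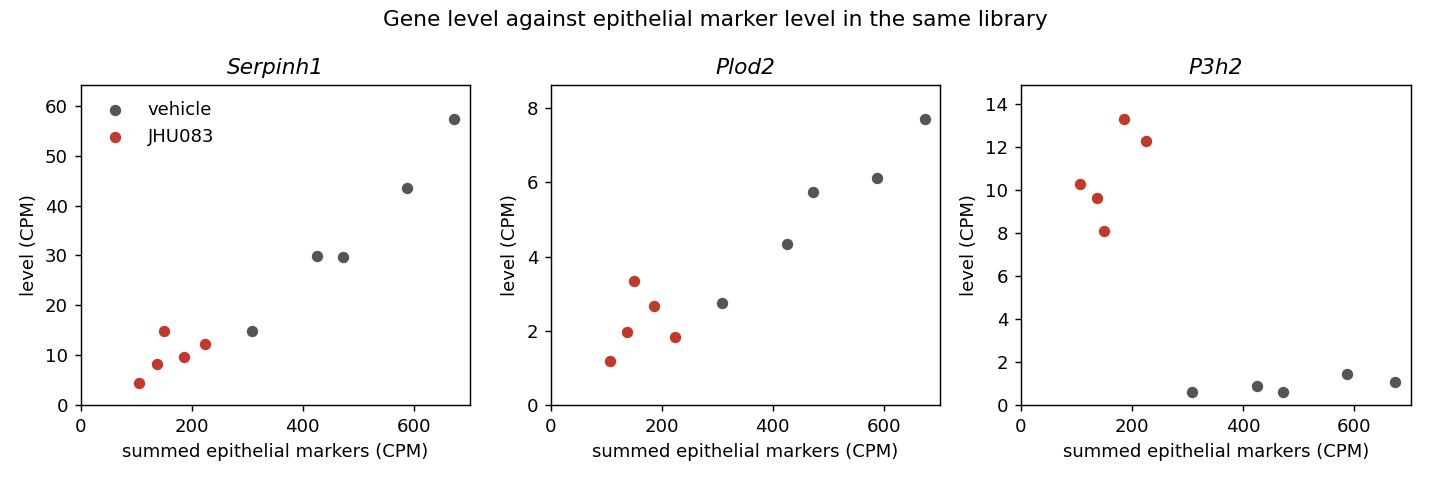
Level in CPM (vertical axis) of Serpinh1, Plod2 and P3h2 against the summed CPM of 13 epithelial markers in the same library (horizontal axis), one point per library, vehicle in grey and JHU083 in red. Serpinh1 and Plod2 are highest in the vehicle library with 673 CPM of epithelial markers, while P3h2 is at 8.11 CPM or more in all 5 JHU083 libraries, whose marker sums are 106 to 225 CPM.

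Ordered by length-adjusted level, the family was led by the same 3 genes in both groups. In vehicle libraries Plod3 averaged 168 FPKM, P4ha1 82.3 and Plod1 78.7, and the last 2 overlapped. Serpinh1 (18.6) and P3h1 (8.73) overlapped next, followed by P4ha2 (5.94) and P3h3 (4.22), and then by Plod2 (1.74), P3h2 (0.645) and P3h4 (0.404), each overlapping its neighbour. In JHU083 libraries Plod3 averaged 125 FPKM, and Plod1 (97.7) and P4ha1 (77.8) overlapped below it. P3h1 (7.81), P3h3 (6.03), Serpinh1 (5.53), P4ha2 (5.26) and P3h2 (3.22) then formed a run in which each overlapped the next, above Plod2 (0.739) and P3h4 (0.327). P3h2 ranked 9 of 10 in vehicle and 8 of 10 in JHU083 libraries, and 10 of 10 in vehicle (0.276 FPKM) when the length assigned in the JHU083 libraries was used throughout. Of the summed FPKM of the lysyl hydroxylases, Plod1 was 31.7% ± 1.32 in vehicle and 43.7% ± 1.38 in JHU083 (SD, n = 5 each), and Plod2 was 0.72% and 0.33% of it.

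The stretches around the transcription starts are shown for 3 members that differed in response: P4ha1, which did not pass, Serpinh1, which fell, and P3h3, which rose. They run from 250 bases before to 50 bases after the start, from RefSeq on GRCm38.p6, and 7 of the 10 members had an entry. Capitals mark 3 motifs searched on both strands: the core of the hypoxia response element (ACGTG), a GC box (GGGCGG) and a TATA box (TATAAA). The P4ha1 stretch is chr10:59323046-59323345 on the plus strand, that of Serpinh1 is chr7:99353190-99353489 on the minus strand, and that of P3h3 is chr6:124857668-124857967 on the minus strand.
P4ha1: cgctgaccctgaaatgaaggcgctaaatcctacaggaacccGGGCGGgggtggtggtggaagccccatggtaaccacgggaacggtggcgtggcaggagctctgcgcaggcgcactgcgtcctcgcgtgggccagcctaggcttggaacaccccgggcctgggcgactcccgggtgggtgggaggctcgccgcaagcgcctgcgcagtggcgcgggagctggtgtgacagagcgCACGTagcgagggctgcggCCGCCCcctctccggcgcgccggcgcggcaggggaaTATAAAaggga
Serpinh1: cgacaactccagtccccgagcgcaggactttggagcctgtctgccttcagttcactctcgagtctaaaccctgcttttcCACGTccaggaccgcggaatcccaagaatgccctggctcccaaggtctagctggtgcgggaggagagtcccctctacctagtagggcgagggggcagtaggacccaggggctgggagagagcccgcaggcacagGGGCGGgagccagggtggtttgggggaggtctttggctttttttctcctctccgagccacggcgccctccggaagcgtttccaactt
P3h3: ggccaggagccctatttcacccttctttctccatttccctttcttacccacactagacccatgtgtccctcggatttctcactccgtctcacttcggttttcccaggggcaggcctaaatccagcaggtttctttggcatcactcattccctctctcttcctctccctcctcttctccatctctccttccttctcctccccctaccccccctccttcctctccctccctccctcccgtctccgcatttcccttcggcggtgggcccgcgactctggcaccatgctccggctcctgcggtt
P4ha1 had 1 ACGTG, 2 GGGCGG and 1 TATAAA, Serpinh1 had 1 ACGTG and 1 GGGCGG, and P3h3 had none of the 3 motifs in this window. The TATAAA of P4ha1 began 39 bases after the transcription start, not before it, and 1 of its GGGCGG matches began 3 bases after it. Of 32851 promoter windows in the table, 19.6% held ACGTG, 35.7% held GGGCGG and 13.6% held TATAAA. Among the entries not shown, Plod1, which rose, had 3 GGGCGG and 1 TATAAA, and Plod3, which fell, had 1 ACGTG and no GGGCGG. P4ha2, which did not pass, had 2 ACGTG and 4 GGGCGG. For P3h1, which did not pass, 1 entry had 2 GGGCGG and another had 2 ACGTG and 1 GGGCGG. A link between motif and response was not tested. A match is a description of the letters and not evidence of binding.

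Of the genes whose products assemble with the hydroxylases, only P4hb passed among the 4 fixed partners tested. P4hb, the shared subunit of prolyl 4-hydroxylase, fell from 1751 ± 110.3 to 1433 ± 176 CPM (SD, n = 5 each), a log2 fold change of -0.29 ± 0.10 (SE, edgeR adjusted p = 0.0340). Crtap and Ppib, which form a complex with P3h1, had log2 fold changes of -0.16 and -0.11 and did not pass (edgeR adjusted p = 0.167 and 0.301). Colgalt1, which adds galactose to hydroxylysine, changed by 0.15 and did not pass (edgeR adjusted p = 0.147). Fkbp10, a prolyl isomerase that assists Plod2, averaged 0.823 CPM in vehicle and 0.356 CPM in JHU083 and was too low to be tested. Of the 13 collagen folding partners tested, 4 rose and 2 fell, with a median log2 fold change of 0.05. The share called over all loci was 18.4% in each direction. The count that rose was 2 on the log2 FPKM scales and within the subset listing the ribosomal loci at 0. Those that rose included Tmem38b, an endoplasmic reticulum cation channel (0.77 ± 0.08), whose row also carries n-R5s185, and the isomerases Fkbp7 (1.11 ± 0.21) and Fkbp14 (1.05 ± 0.27). The count that fell was 5 without JHU083 library 3, 0 without vehicle library 1, and 1 without vehicle library 5 or JHU083 library 1, 2, 4 or 5. It was 4 with scaling by library size only, 1 with the ribosomal listing as a covariate or on the log2 FPKM scales, and 0 with no filter on low counts, with a block for the replicate number and within each subset by ribosomal loci. Where it was 0, the call on P4hb was lost.

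The collagens themselves mostly fell: of 23 collagen chains tested among 44 listed, 13 fell and 4 rose, with a median log2 fold change of -0.96. Col18a1, a basement membrane collagen, fell most among the more abundant chains (log2 fold change -2.77 ± 0.29, SE), and Col16a1 (-2.02 ± 0.34), Col5a1 (-1.73 ± 0.26) and Col7a1, whose row also carries Mir711 (from 17.9 to 4.44 CPM), fell as well. The collagen IV chain genes Col4a1 and Col4a2, whose products P3h2 is known to modify, fell from 28.8 ± 9.72 to 17.9 ± 2.14 CPM and from 17.6 ± 4.96 to 6.61 ± 1.78 CPM (SD, n = 5 each; edgeR adjusted p = 0.0120 and 0.000230). They were chosen for their relation to P3h2 after their values were seen. The count of chains that rose was 2 without vehicle library 2, vehicle library 4 or JHU083 library 1, 2 and 1 within the subsets by ribosomal loci, and 1 on the log2 FPKM scales. Of 12 genes of procollagen processing and cross-linking, 9 fell and 0 rose (0 also at an unadjusted p under 0.05, and 0 by DESeq2 and limma-voom), with a median of -1.41. The count that fell was 3 within the subset listing the ribosomal loci at 0. They included the propeptide protease Bmp1 (-1.62 ± 0.25), its enhancer Pcolce (-1.85 ± 0.28), whose row also carries Fbxo24, the lysyl oxidase family member Loxl3 (-1.28 ± 0.18) and Sparc (-1.05 ± 0.23). The epithelial sum given beside Serpinh1 was lower in every JHU083 library than in every vehicle library, and the fibroblast sum overlapped between groups. That fibroblast sum includes Fap and Mmp2, which rose, and of its 13 genes tested 5 fell and 2 rose. It also includes Col1a1, Col1a2 and Col3a1, whose row also carries AC125167.1, and these are counted among the collagen chains here. The part of either cell type in these counts was not tested.

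Proteins that carry a collagen-like domain without being collagens are the clients most typical of macrophages. Of 10 such genes tested, 2 rose and 3 fell, with a median log2 fold change of 0.04. The share called over all loci was 18.4% in each direction, so these few calls do not set the group apart. The C1q genes were abundant, C1qa averaging 4921 CPM in vehicle and 5462 CPM in JHU083, and none of C1qa, C1qb and C1qc passed (log2 fold changes 0.15, 0.12 and -0.04; edgeR adjusted p = 0.394, 0.473 and 0.839). The scavenger receptor genes moved apart: Msr1 fell (-0.43 ± 0.08, log2, SE) and Colec12 rose (0.51 ± 0.08). C1qtnf6 fell (-0.46 ± 0.11), and Colq, whose row also carries Hacl1, rose by 0.54 ± 0.16. The count that rose was 1 without JHU083 library 4, on the log2 FPKM scales and within each subset by ribosomal loci. The count that fell was 0 within the subset listing the ribosomal loci at 0. Of 16 genes of collagen receptors, uptake and breakdown, 2 rose and 7 fell, with a median of -0.60. Within each subset by ribosomal loci, 1 rose and 4 fell. The epithelial sum was lower in the JHU083 libraries here too, and its part was not tested. Mmp2, a gelatinase, rose by 2.04 ± 0.15, while Ctsk, a collagen-degrading protease (-1.71 ± 0.28), Mmp9 (-1.65 ± 0.39) and the collagen receptor Ddr2 (-1.61 ± 0.28) fell. The other gene that rose was Mrc1, the most abundant of the list, from 1428 to 2446 CPM (0.78 ± 0.20, edgeR adjusted p = 0.00806). Its groups overlapped. The genes that fell ranged in vehicle from 1.78 CPM (Mrc2) to 435 CPM (Mmp13).

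**Figure D5:**
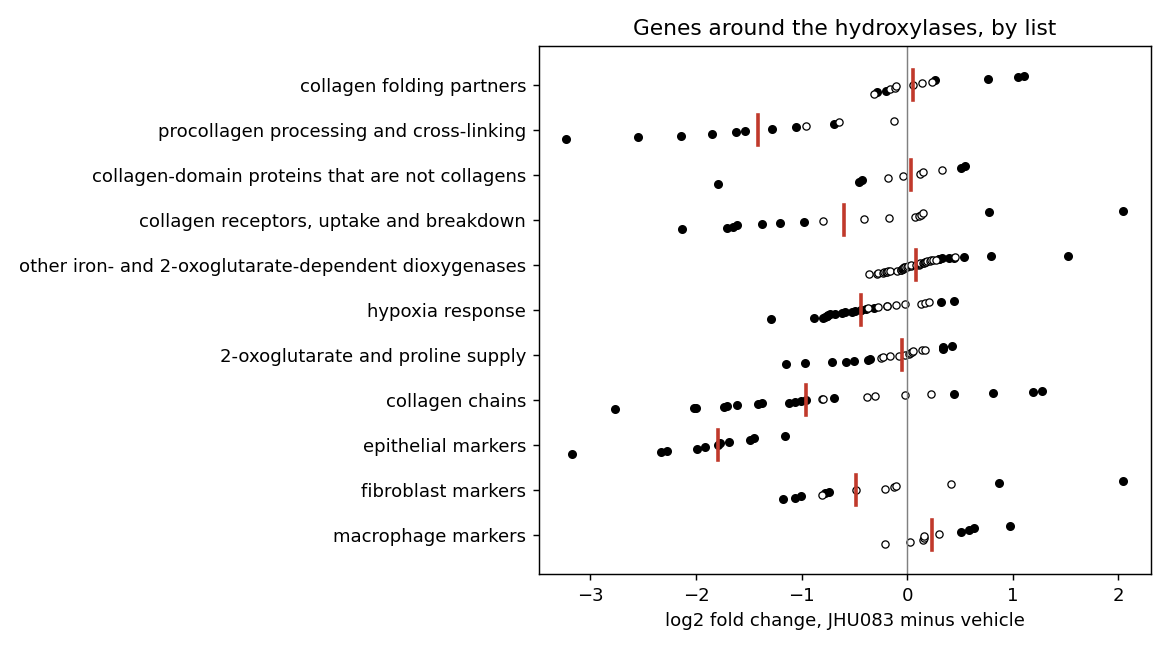
Log2 fold change (JHU083 minus vehicle, horizontal axis) of each tested gene in the pathway and marker lists, one point per gene, filled where called by edgeR and open where not, with the list's median as the red line. The epithelial markers lie wholly below 0, the genes of procollagen processing have a median of -1.41, and the other dioxygenases gather around 0 with a median of 0.08.

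Other enzymes that share the iron and 2-oxoglutarate chemistry were mostly not called, and the same holds for all loci tested. Of those, 36.8% were called, 18.4% in each direction. Of 47 such dioxygenases tested, 8 rose and 0 fell, with a median log2 fold change of 0.08 (3 fell at an unadjusted p under 0.05, and 0 by DESeq2 and limma-voom). Those that rose included Hr (1.53 ± 0.28), Jmjd1c (0.80 ± 0.23), Kdm6a (0.54 ± 0.13) and Kdm3a (0.45 ± 0.12), which encode histone demethylases or proteins of their family. Without JHU083 library 3, 15 rose and 4 fell. The count that fell was 1 without vehicle library 3 or vehicle library 4, and 3 with scaling by library size only.

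The hypoxia response genes, which share regulation with P4ha1 and P4ha2, mostly fell: 17 of 28 fell and 2 rose, with a median log2 fold change of -0.44. The epithelial sum was also lower in every JHU083 library than in every vehicle library, and its part in this fall was not tested. The glycolytic genes Ldha (-0.80 ± 0.12, SE) and Pgk1 (-0.76 ± 0.11), the cytokine gene Mif (-0.88 ± 0.11) and Ddit4 (-0.78 ± 0.12) fell. The 9 genes of this list that did not pass included Vegfa, Bnip3, Hk2 and Hilpda. P4ha1 and P4ha2, at -0.06 and -0.18, were not among the genes called, while the member Plod2 was called at -1.26. Which members respond to hypoxia in these cells was not tested. The count that rose was 1 without vehicle library 2, 3 or 4 or JHU083 library 1, with scaling by library size only and with a block for the replicate number, 0 on the log2 FPKM scales, and 0 and 1 within the subsets. Of 22 genes that make, use or carry 2-oxoglutarate, proline or ascorbate, 4 rose and 7 fell, with a median of -0.05. The share called over all loci was 18.4% in each direction. The count that fell was 3 in 1 alternative fit and 6 to 9 in the others. The genes of serine and proline synthesis Psat1 (-1.15 ± 0.10) and Aldh18a1 (-0.71 ± 0.08) fell, as did Prodh (-0.58 ± 0.15), which encodes proline dehydrogenase. The count that rose was 2 without vehicle library 1 or JHU083 library 5, with scaling by library size only and with a block for the replicate number, 1 on the log2 FPKM scales, and 0 and 2 within the subsets by ribosomal loci.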

How the data were processed

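RNA of 5 vehicle and 5 JHU083 samples was sequenced. Per the submitters' processing notes, bcl2fastq 2.17.1.14, FastQC 0.11.2, TopHat2 2.1.1 and the build GRCm38 were used, and per the labels' protocols the libraries were made from poly(A) RNA. The counting program and annotation are not given in the sources used here. Each table holds 2 value columns, raw counts and normalized values per the file headers. The deposited raw column was handled under the unit expected counts only because its values are not whole as they stand, and how the authors made it is not given in the sources used here. In each sample 99.8% to 99.96% of its positive values were whole multiples of a step (tolerance 0.05), which points to whole counts scaled by a factor per sample, and dividing by the step and rounding gave the fragments tested. The deposited normalized values were treated as FPKM, from their values and with no statement of the unit.

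Loci were filtered with filterByExpr, scaled by TMM and fitted with edgeR 4.0.16 (robust quasi-likelihood) in R 4.3.3 over the 10 samples. DESeq2 1.42.0, limma 3.58.1, other scalings, no filter, the replicate block, the deposited values rounded, log2 FPKM, the 2 subsets by ribosomal loci and leaving out each library were alternatives. On simulated counts with 200 loci changed by 1 on the log2 scale, edgeR recovered 85.5% of them and 2.84% of its calls were false. The locus with no symbol, at most 0.00209% of fragments, was left out. The members and gene lists were chosen with earlier results of these data known. Named were all members, the 5 loci most like P3h2, the complex partners, and up to 4 called genes per list with the largest change at an average log2 CPM of at least 2; other names were chosen after their values were seen. A gene that this rule would name is not reported here. The ratios and the common length for P3h2 were likewise chosen after seeing the data.

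The 9 marker lists gave, as higher and lower calls, 4 and 0 for macrophages, 2 and 5 for fibroblasts, 0 and 11 for epithelium, 1 and 2 for endothelium, 1 and 0 for eosinophils, 1 and 2 for neutrophils, 1 and 0 for lymphocytes, 1 and 0 for dendritic cells, and 1 and 1 for mast cells and basophils.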

Additional observations from a re-analysis of the deposited data

How the results depend on the processing

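Of 207 values of the 9 members other than P3h2 under the alternatives, 199 kept their direction and side of the threshold, 6 no longer passed, 2 newly passed and 0 reversed. The 2 that newly passed were P3h1 without JHU083 library 3 or with library size only, as given above. Among the ratios, which are not in these counts, that of Plod2 to Serpinh1 newly passed without JHU083 library 4, at 0.67. All 6 losses came from fits within the 2 subsets of 5 libraries. In the subset listing the ribosomal loci at 0, 538 loci were called higher and 560 lower, with 1 other member higher and 0 lower; in the other subset 1281 loci were called higher and 1568 lower, with 0 other members higher and 3 lower. These fits hold fewer samples. Leaving out each library gave 1814 to 2893 loci higher and 1898 to 2922 lower, 2 other members higher in every fit and 3 to 4 lower, and 0.44 to 0.67 for the ratio of Plod2 to Serpinh1. Scaling by library size only gave 1560 loci higher and 3138 lower, against 2301 and 2295. Adding a block for the replicate number gave 1617 loci higher and 1759 lower, with 2 other members higher and 3 lower. The numbers did not pair the samples: deviations of same-numbered samples correlated from -0.57 to 0.09, and no vehicle sample correlated best with the JHU083 sample of its own number. Counts over several lists also moved in the subset fits: dioxygenases called higher were 0 and 5 in the subsets and 4 on the log2 FPKM scales, and collagen chains called lower were 3 in the subset listing the ribosomal loci at 0. P3h4, Fkbp10 and vehicle P3h2 rest on few fragments, so small changes were not detectable there.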

Other observations

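The fibroblast markers did not move together. Fap, a serine protease of activated fibroblasts, rose from 10.96 ± 3.02 to 20.1 ± 2.07 CPM (SD, n = 5 each), a log2 fold change of 0.87 ± 0.16 (SE, edgeR adjusted p = 0.000976). Mmp2 rose from 6.22 ± 1.02 to 25.7 ± 4.95 CPM (edgeR adjusted p = 1.05e-06). For both genes every JHU083 library lay above every vehicle library. Pdgfra, whose row also carries Mir7025, and Thy1 fell, with log2 fold changes of -1.17 ± 0.31 and -0.74 ± 0.23 (edgeR adjusted p = 0.00952 and 0.0208). Col1a1 fell by 1.06 ± 0.36 (edgeR adjusted p = 0.0394), and Col1a2 was at 38.1 ± 11.6 and 21.8 ± 9.42 CPM without passing (edgeR adjusted p = 0.0571).

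Among the collagen chains that rose, Col14a1 had the most fragments, going from 90.5 ± 13.8 to 207 ± 43.8 CPM (SD, n = 5 each), a log2 fold change of 1.19 ± 0.14 (SE, edgeR adjusted p = 2.34e-05). Col14a1 encodes a fibril-associated collagen, and its groups did not overlap. Col27a1 (1.28 ± 0.34), Col20a1 (0.81 ± 0.25), whose row also carries 9230112E08Rik, and Col15a1 (0.45 ± 0.17) also rose, from means of 0.738, 2.28 and 7.30 CPM. The lysyl oxidase gene Loxl4 fell by 3.23 ± 0.33, from 3.90 to 0.408 CPM (edgeR adjusted p = 8.89e-06). These genes were chosen after their values were seen.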
